A study of Rattus norvegicus with 9 samples.

Results

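Npas4 and Arc are the 2 immediate early genes examined here, chosen by their gene names from the 32623 entries of the deposited table and measured in all 9 libraries. Both passed the filter on low counts that 16284 entries passed. Primary cortical neurons were prepared from wild-type Wistar rat embryos of embryonic day 16 to 18 and kept on glass coated with indium tin oxide, a transparent conductor that served as the electrode. The ACS group received alternating current and the DCS group direct current, each at 3 µA for 20 min per day over 7 days, and the control group received no current, with 3 libraries per group. The labels write DES for the DCS group, give 20 Hz for both currents where the methods of the study give a frequency for ACS alone, and place all 3 groups at day 7 in vitro while the growth protocol runs to day 14. The interval between the last stimulation and RNA extraction is not given in the sources used here, and neither is whether each library had its own culture. The p-values therefore reflect the spread between these libraries alone, which may be technical.

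Immediate early genes are switched on within minutes of stimulation without new protein synthesis. Npas4 encodes a transcription factor of the bHLH-PAS family that pairs with Arnt or Arnt2 and that, in rodent neurons, is induced by depolarization and calcium entry, with a role in adjusting the number of inhibitory synapses to activity. Arc encodes a postsynaptic protein that promotes internalization of AMPA-type glutamate receptors, descends from a retrotransposon Gag protein and can assemble into capsids, and its mRNA travels to active dendritic sites. Fos, Egr1 and other immediate early genes respond to stimulation in many cell types, whereas Npas4 and Arc are known mainly from neurons.

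The table lists Npas4 as ENSRNOG00000020009 on chromosome 1 from 220261008 to 220265772, minus strand, with 1 transcript, and Arc as ENSRNOG00000043465 on chromosome 7 from 115907097 to 115910541, minus strand, with 2 transcripts. The table names no genome build for these positions. The RefSeq promoter table, on the GRCr8 build, matched 1 of the 2 genes, Npas4. The 250 bases before its start are shown because the letters there can be set beside those of other immediate early genes. They lie on the minus strand of GRCr8 at chr1:211716103-211716352 and are given 5′ to 3′ with the only motif found among those searched in capitals, an E-box.
Npas4: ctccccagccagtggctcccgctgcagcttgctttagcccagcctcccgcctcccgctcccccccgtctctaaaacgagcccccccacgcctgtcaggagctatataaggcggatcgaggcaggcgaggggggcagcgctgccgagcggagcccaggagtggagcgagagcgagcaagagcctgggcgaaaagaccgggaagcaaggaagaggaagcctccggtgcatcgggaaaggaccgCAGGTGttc
Both strands of each window, which runs from 250 bases before to 50 bases after the start, were searched for the full cAMP response element TGACGTCA, its core TGACG (contained in the full element), the E-box CANNTG, the CArG box bound by serum response factor, the TATA box TATAAA, the AP-1 site TGANTCA and TCGTG, the core of the site bound by Npas4 with Arnt. The Npas4 window was 67.0% G and C and held 1 of these 7 motifs, the E-box, which 72.1% of all 33469 windows also held. Only the exact letters TATAAA were counted as a TATA box. Other forms were not searched, and the printed sequence holds the similar letters tatataag. Among the 29 immediate early genes with a window, 18 held TGACG, 5 the full cAMP response element, 4 a CArG box and 8 TATAAA, where 21.2%, 1.83%, 1.64% and 14.2% of all windows did. An E-box was held by 18 of the 29, TCGTG by 9 (17.0% of all windows) and TGANTCA by 0 (7.33%). These matches are a description of the letters and say nothing on binding.

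Npas4 was the more abundant of the pair and had the larger difference between ACS and the other groups. Its level was 14.2, 9.11 and 14.5 FPKM (fragments per kilobase of exon, scaled to the fragments of the library) in the ACS libraries 1, 2 and 3. It was 1.95, 1.78 and 3.48 FPKM in the DCS libraries and 1.95, 1.66 and 3.07 FPKM in the control libraries, in the same order of library numbers. The lowest ACS library, library 2, was above the highest DCS and control libraries, while the DCS and control libraries covered nearly the same range and library 3 was the highest in each of them.
Arc was low throughout. Its level was 1.91, 1.59 and 1.60 FPKM in the ACS libraries, 0.786, 0.549 and 1.03 FPKM in the DCS libraries and 0.799, 0.501 and 0.969 FPKM in the control libraries. The ACS libraries again lay above all others, and libraries 2 and 3 were again the lowest and the highest of the DCS and control groups.

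**Figure D1:**
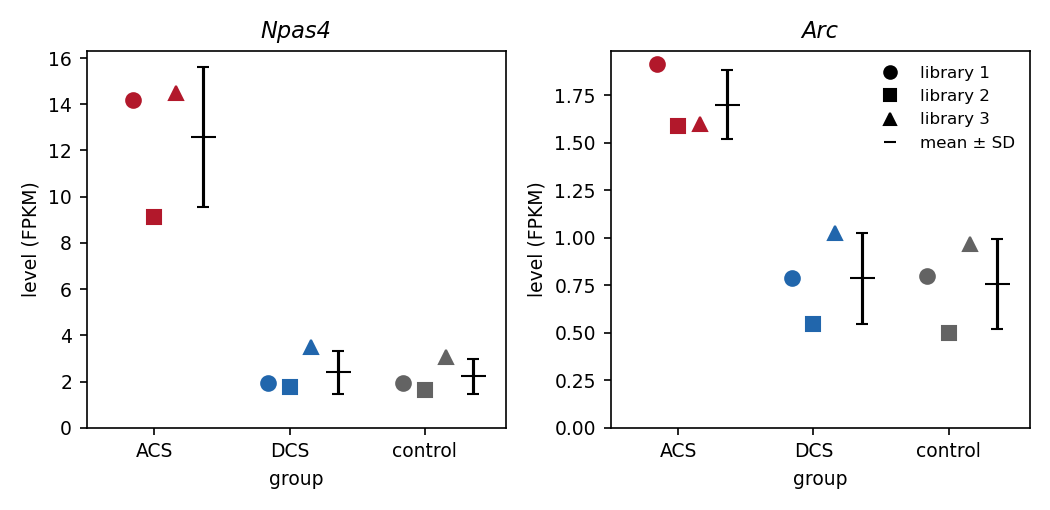
Levels of Npas4 and Arc in FPKM (vertical axes, from 0, with a scale for each gene) in the 9 libraries by group, with the library number as the symbol and the mean ± SD of 3 libraries beside the points. The ACS libraries sit between 9.11 and 14.5 FPKM for Npas4 and between 1.59 and 1.91 FPKM for Arc, above every DCS and control library.

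As group means, Npas4 stood at 12.59 ± 3.02 FPKM in ACS, 2.40 ± 0.939 FPKM in DCS and 2.23 ± 0.747 FPKM in control (SD, n = 3 each). Arc stood at 1.70 ± 0.184 FPKM in ACS, 0.787 ± 0.239 FPKM in DCS and 0.756 ± 0.237 FPKM in control (SD, n = 3 each). For both genes the order was ACS, DCS, control, and DCS and control, neighbours in that order, differed by less than their SDs. The relative spread between ACS libraries was larger for Npas4 (24.2% of the mean in CPM, counts scaled to the library) than for Arc (11.3%), whereas in control it was 32.5% for Npas4 and 30.2% for Arc.
Set against the mean FPKM of all tested genes, Npas4 lay above 61.8% of them in ACS, 28.3% in DCS and 27.8% in control. Arc lay above 24.1% of them in ACS, 16.4% in DCS and 16.3% in control, so it was among the less abundant transcripts in every group.

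The pair rested on unequal depth. The libraries held 49039412 to 52938628 estimated counts in ACS, 52370330 to 68133858 in DCS and 53910745 to 68690760 in control, and the low counts of the table pile up at multiples of 4, so 1 fragment may add about 4. On that reading Arc rested on 25 to 77 fragments per library and Npas4 on 65 to 490. The library with the fewest, DCS library 2, would then hold 25 Arc fragments with a 95% Poisson interval of 16.2 to 36.9, and ACS library 1 would hold 77 with an interval of 60.8 to 96.2. These intervals cover counting error only.

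The comparison of ACS with control asked whether daily alternating current left a mark on these activity-induced genes. Both genes rose. By edgeR's quasi-likelihood test across all tested genes, Npas4 was 5.71-fold higher in ACS than in control (95% interval 3.53 to 9.25), a log2 fold change of 2.51 ± 0.31 (SE) with an adjusted p of 0.00341. Arc was 2.27-fold higher (95% interval 1.48 to 3.49), a log2 fold change of 1.18 ± 0.28 (SE) with an adjusted p of 0.0456 in the same edgeR fit. So 2 of 2 genes were called higher, where 2.83% of all tested genes were and 1.33% were called lower, and 2 of 2 had ACS libraries that did not overlap with the control libraries, where 14% of tested genes did so in that direction. Among the 461 genes called higher, Npas4 had the fourth largest log2 fold change and Arc the 26th.
The bulk libraries do not tell fewer cells of a type from less RNA per cell. Markers of neurons, as a summed level of 7 genes, ranged from 2260 to 2381 FPKM in ACS. In control the sum ranged from 2107 to 2223 FPKM, which did not overlap. Most of it was Tubb3 and Stmn2, at 1179 and 714.5 FPKM on average in ACS, and Tubb3 alone overlapped between these groups. Rbfox3 was called higher (log2 fold change 0.43, adjusted p = 0.00810 by edgeR), 1 of the 7, where 2.83% of all tested genes were. For 2 of the 7 every ACS library was above every control library, as for 14% of tested genes. The median log2 fold change of the 7 was 0.06. The part of the neuron markers in the Npas4 and Arc differences was not tested.

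The calls were not equally secure. Npas4 was called higher in ACS than in control whichever library was dropped (9 fits), at log2 fold changes of 2.34 to 2.81 and adjusted p of 0.00156 to 0.0233 by edgeR. Arc was called in 3 of those 9 fits, without DCS library 2, DCS library 3 or control library 3. It was not called without ACS library 1, 2 or 3, DCS library 1, or control library 1 or 2, where the edgeR adjusted p ran from 0.0686 to 0.144 while the log2 fold change stayed between 0.96 and 1.39 over all 9 fits.

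**Figure D2:**
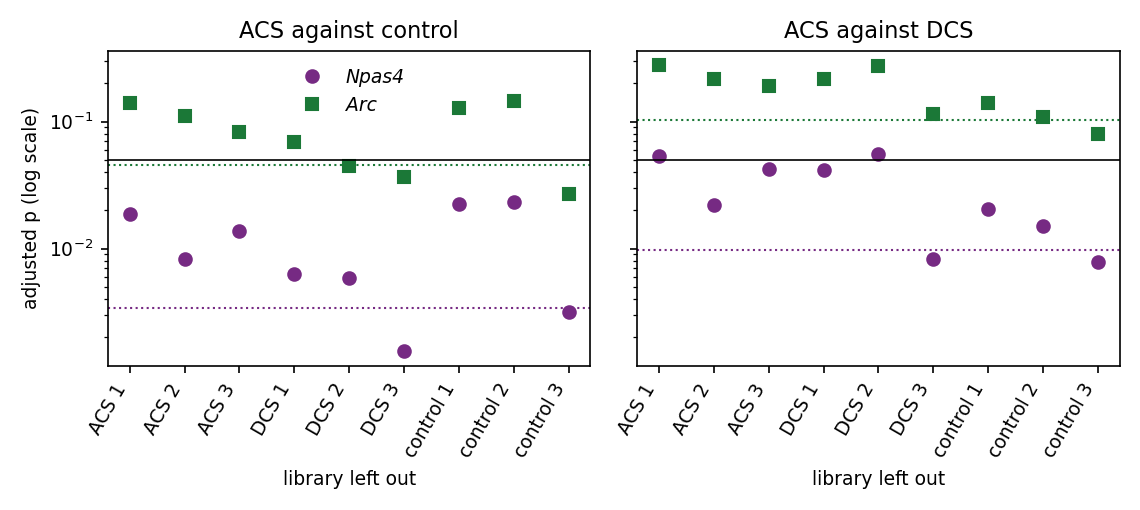
Adjusted p (log scale) for Npas4 (circles) and Arc (squares) from edgeR fits that each left out the library named on the horizontal axis, for ACS against control and ACS against DCS. The solid line marks 0.05 and the dotted lines the values with all 9 libraries. In the first comparison all Npas4 points and 3 Arc points lie under 0.05, and in the second 7 Npas4 points and 0 Arc points do.

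Direct current was compared with no current in the same way. Npas4 was at 1.07 times its control level in DCS (95% interval 0.673 to 1.71), a log2 fold change of 0.10 ± 0.30 (SE, adjusted p = 0.952 by edgeR). Arc was at 1.04 times its control level (95% interval 0.677 to 1.59), a log2 fold change of 0.05 ± 0.28 (SE, adjusted p = 0.977 by edgeR). Neither gene was called, at unadjusted p of 0.745 for Npas4 and 0.853 for Arc, nor was either called by DESeq2 or limma, where 0.0123% of all tested genes were called by edgeR in either direction and 7.09% had an unadjusted p under 0.05. The intervals allow a DCS level of 0.673 to 1.71 times control for Npas4 and 0.677 to 1.59 times for Arc, and the sign of either difference turned when DCS library 3 or control library 2 was left out.

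ACS was then set directly against DCS, a comparison that shares its ACS libraries with the first and its DCS libraries with the second. Npas4 was 5.33-fold higher in ACS than in DCS (95% interval 3.29 to 8.61), a log2 fold change of 2.41 ± 0.31 (SE) with an adjusted p of 0.00971 by edgeR. Arc was 2.19-fold higher (95% interval 1.43 to 3.37), a log2 fold change of 1.13 ± 0.28 (SE), but its adjusted p of 0.104 by edgeR missed the threshold. Thus 1 of 2 genes was called higher, where 0.51% of tested genes were and 0.123% were called lower, and 2 of 2 had groups that did not overlap, where 11.2% did in that direction. The Npas4 call was lost without ACS library 1 (adjusted p = 0.0533) or DCS library 2 (adjusted p = 0.0554), and Arc was called by DESeq2 (adjusted p = 0.00500) but not by edgeR or limma.

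**Figure D3:**
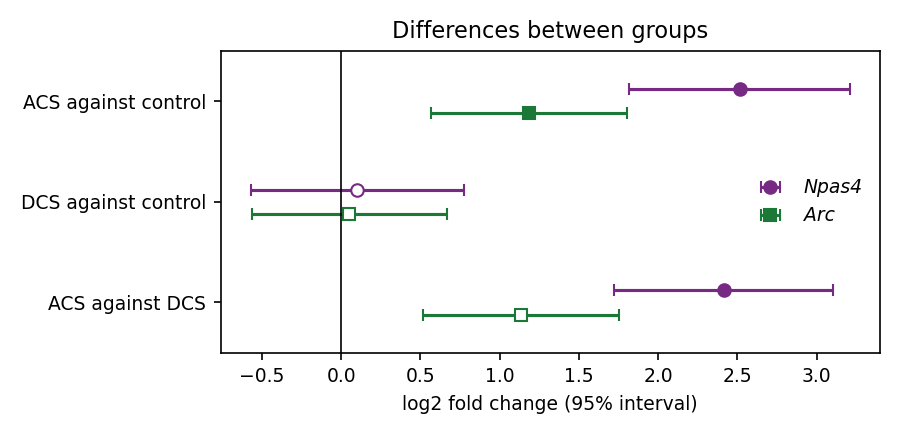
Log2 fold changes of Npas4 (circles) and Arc (squares) in the 3 comparisons, with 95% intervals from the edgeR fit (horizontal axis, with 0 marking no difference). Filled symbols passed an adjusted p of 0.05. The intervals against control lie above 0 for ACS, at 1.82 to 3.21 for Npas4 and 0.57 to 1.80 for Arc, and span 0 for DCS.

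Dividing Npas4 by Arc within a library removes the library's size and gives the relative response of the pair. The ratio of Npas4 to Arc in FPKM was 7.40, 5.72 and 9.05 in the ACS libraries, 2.48, 3.24 and 3.39 in the DCS libraries and 2.45, 3.31 and 3.17 in the control libraries. Its mean was 7.39 ± 1.66 in ACS, 3.04 ± 0.490 in DCS and 2.98 ± 0.464 in control (SD, n = 3 each). Every ACS library was above every DCS and control library. By the mean of its log2 values the ratio was 2.46-fold higher in ACS than in control (two-sided exact permutation p = 0.1), 2.42-fold higher in ACS than in DCS (exact permutation p = 0.1) and 1.02-fold its control value in DCS (exact permutation p = 0.7). The smallest p that 3 against 3 libraries allow is 0.1, so none of the 3 comparisons could pass 0.05, and adjusted over the 3 they stood at 0.15, 0.15 and 0.7.

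Npas4 and Arc belong to a list of 39 immediate early genes, all of which passed the filter. In ACS against control 19 of the 39 rose, where 2.83% of all tested genes did, and 0 fell, where 1.33% did (0 were lower at an unadjusted edgeR p under 0.05 or by DESeq2 or limma), with a median log2 fold change of 0.57 beside -0.003 over all tested genes, and 33 of the 39 had a value above 0. Npas4 had rank 3 in the list by log2 fold change and Arc rank 10. The genes with the smallest p were Egr1, Fos, Junb and Nr4a1, all transcription factors. Fos, a subunit of the AP-1 factor, averaged 55.81 ± 7.28 FPKM in ACS and 10.11 ± 2.19 FPKM in control (SD, n = 3 each), with a log2 fold change of 2.48 (adjusted p = 0.000361 by edgeR). Egr1, a zinc finger factor, averaged 63.43 ± 7.27 FPKM in ACS and 14.18 ± 2.86 FPKM in control (SD, n = 3 each), with a log2 fold change of 2.18 (adjusted p = 0.000301 by edgeR).
Nr4a1, an orphan nuclear receptor, was close to Npas4 in level as well as in response. It stood at 12.27, 9.68 and 14.85 FPKM in the ACS libraries, against 1.24, 2.02 and 2.71 FPKM in the control libraries, or 2.64 higher on the log2 scale (adjusted p = 0.00184 by edgeR). Junb, an AP-1 subunit, gave a log2 ratio of 1.12 (adjusted p = 0.000687 by edgeR), which is similar to that of Arc. These 4 genes were called in all 9 fits that left out a library. The count of the list called higher fell to 11 without control library 2 and to 12 without ACS library 1 or control library 1.
Egr4, named here because it alone with Nr4a1 ranked above Npas4 and chosen after its values were seen, was at 0.432, 0.718 and 0.611 FPKM in ACS and was listed at 0 in 2 of the 3 control libraries, with 0.146 FPKM in the other, so its fitted fold change depends on the handling of zeros. Its adjusted p was 0.110 by edgeR.

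**Figure D4:**
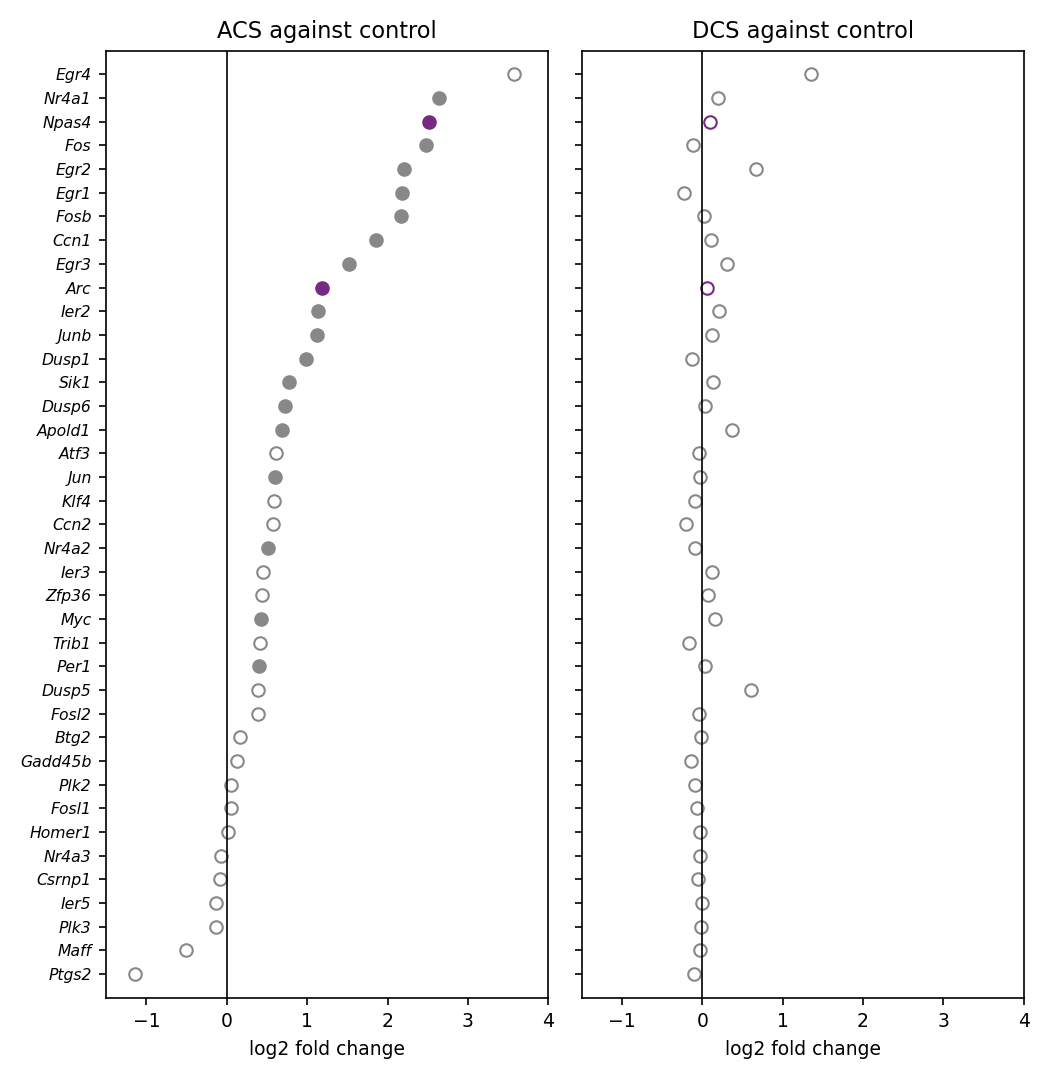
Log2 fold changes (horizontal axes) of the 39 immediate early genes, ordered by their value in ACS against control, for ACS against control and for DCS against control. Filled symbols passed an adjusted p of 0.05, and Npas4 and Arc are drawn in purple. On the ACS side 19 symbols are filled, all above 0, and on the DCS side 0 are.

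Under direct current no member of the list passed the test. In DCS against control 0 of the 39 immediate early genes were called in either direction by edgeR, DESeq2 or limma. Over all tested genes edgeR called 0.0123% and DESeq2 called 38 genes, so 0 of 39 does not set the list apart. At an unadjusted edgeR p under 0.05 there were 3, where 7.09% of all tested genes were, and the median log2 fold change of the 39 was -0.01. In ACS against DCS 12 of the 39 rose and 0 fell by edgeR, where 0.51% of all tested genes rose and 0.123% fell, with a median of 0.61, and Npas4 and Arc again had ranks 3 and 10. Fos was at 7.64, 8.11 and 12.49 FPKM in the DCS libraries, against 9.18, 8.54 and 12.61 FPKM in the control libraries, so library 3 was the highest for Fos too, as for Npas4 and Arc.

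Genes that act upstream of Npas4 and Arc were described in a pair of lists. Of 17 transcription factors and coactivators known to act on such promoters and enhancers (the Creb, Crtc, Srf, Elk and Mef2 families and the acetyltransferases Crebbp and Ep300), 15 were tested, 2 rose in ACS against control and 1 fell, where 2.83% of all tested genes rose and 1.33% fell. Their median log2 fold change was 0.15, beside -0.003 over all tested genes. Crtc2, a coactivator that enters the nucleus on calcium signals and binds Creb1, rose to 13.49 ± 0.519 FPKM in ACS, against 10.32 ± 0.817 FPKM in control (SD, n = 3 each; log2 fold change 0.40, adjusted p = 0.0143 by edgeR). Elk1, a partner of Srf, rose by 0.26 on the log2 scale (adjusted p = 0.0118 by edgeR).
Creb1, which binds cAMP response elements, fell. It was at 13.37, 16.31 and 14.10 FPKM in ACS, 20.11, 20.14 and 21.16 FPKM in DCS and 20.12, 18.32 and 18.48 FPKM in control. Its ACS libraries were below all others, with a log2 fold change of -0.36 against control (adjusted p = 0.0456) and -0.46 against DCS (adjusted p = 0.0491) by edgeR. Crtc1, the neuronal relative of Crtc2, gave a log2 ratio of 0.29 (adjusted p = 0.119 by edgeR). In fits that left out 1 library, Creb1 was called in 2 of 9, Crtc2 in 5 and Elk1 in 5, so none of these 3 calls held in every such fit. Among the alternatives other than these fits, the Creb1 call was also lost without the filter (adjusted p = 0.0545 by edgeR), with the 6 libraries alone (0.0860) and with the replicate number as a block (0.0739).
Of 21 genes of calcium entry and calcium signaling, which carry depolarization to the nucleus, 20 were tested, 1 rose and 0 fell in ACS against control, where 2.83% of all tested genes rose and 1.33% fell, with a median of 0.04. At an unadjusted edgeR p under 0.05 there were 5 higher and 1 lower, where 20.8% of all tested genes had such a p in either direction. DESeq2, which called 1627 of all tested genes, called 3 of the list higher and 0 lower, and limma on log2(FPKM + 0.1) called 1 higher and 0 lower. The riser was Cacna1d, which encodes an L-type calcium channel of the Cav1 family, at 8.71, 8.41 and 8.87 FPKM in ACS, against 6.22, 6.71 and 6.58 FPKM in control (log2 fold change 0.43, adjusted p = 0.0109 by edgeR). Cacna1d was also higher in ACS than in DCS, by 0.42 on the log2 scale (adjusted p = 0.0345), and was called in 8 of 9 fits that left out a library. Cacna1c, the other L-type channel gene of the list, gave a log2 ratio of 0.20 (adjusted p = 0.115), Grin1, the obligatory NMDA receptor subunit, 0.23 (adjusted p = 0.0543), and Camk2g, a calcium/calmodulin-dependent kinase, -1.01 (adjusted p = 0.146), all by edgeR. Camk2g was at 2.12, 1.29 and 1.03 FPKM in ACS, against 2.10, 1.94 and 5.00 FPKM in control. With 1 library left out its log2 fold change ran from -1.37 to -0.44, the latter without control library 3. By DESeq2, Cacna1c (adjusted p = 0.0479) and Grin1 (adjusted p = 0.00484) were called higher.

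No bHLH-PAS relative or dimerization partner of Npas4 was called in the main edgeR fit. Of 17 symbols searched, which include current and older names of the same genes, 11 were tested. In ACS against control 0 of the 11 were called by edgeR or limma. By edgeR 2.83% of all tested genes were called higher and 1.33% lower, and so few genes cannot be told from those shares. At an unadjusted edgeR p under 0.05 there were 3, where 20.8% of all tested genes were. DESeq2, which called 1627 of all 16284 tested genes, called 2 of the 11 higher, Arnt2 (adjusted p = 0.0026) and Epas1 (adjusted p = 0.045). Of the 11, 9 had a log2 fold change above 0. The median log2 fold change was 0.20. Arnt2, the partner of Npas4 that is expressed mainly in neurons, was at 60.62, 61.10 and 54.08 FPKM in ACS, against 49.72, 50.53 and 51.06 FPKM in control (log2 fold change 0.23, adjusted p = 0.0553 by edgeR). By mean FPKM the partner was above Npas4 itself in all 3 groups, by a smaller factor in ACS. The means were 58.6 against 12.59 in ACS, 52.94 against 2.40 in DCS and 50.44 against 2.23 in control. Npas1 and Npas2, related factors, gave log2 ratios of 0.25 (adjusted p = 0.319) and 0.26 (adjusted p = 0.139), and Epas1, a hypoxia-inducible factor, 0.20 (adjusted p = 0.0838) by edgeR.
Of 11 genes described as targets of Npas4 in mouse and rat neurons, all were tested. In ACS against control 0 of these 11 were called by edgeR, DESeq2 or limma. Over all 16284 tested genes edgeR called 2.83% higher and 1.33% lower, and DESeq2 called 1627. So few genes cannot be told from the edgeR shares. At an unadjusted edgeR p under 0.05 there were 2, where 20.8% of all tested genes were. The median log2 fold change of the 11 was -0.09, and 4 of the 11 had a value above 0. Bdnf, the neurotrophin gene most often described as an Npas4 target, was chosen after its values were seen. It was at 0.353, 0.420 and 0.694 FPKM in ACS, 0.376, 0.528 and 0.777 FPKM in DCS and 0.575, 0.567 and 0.597 FPKM in control. The ACS libraries spanned the control range (log2 fold change -0.23 ± 0.30, SE, adjusted p = 0.707 by edgeR). Among those the naming rule takes, Rgs2, a regulator of G protein signaling, gave a log2 ratio of 0.15 (adjusted p = 0.342). Syt10, a synaptotagmin, was at 0.564, 0.636 and 0.806 FPKM in ACS, against 0.365, 0.421 and 0.102 FPKM in control (log2 fold change 1.18, adjusted p = 0.224 by edgeR). Nrn1, a membrane-anchored factor that promotes neurite growth, gave a log2 ratio of -0.32 (adjusted p = 0.216), and Ptgs2, the inducible cyclooxygenase, -1.15 (adjusted p = 0.277) by edgeR. Homer1 and Plk2, which are in this list and among the immediate early genes and were also chosen after their values were seen, gave log2 ratios of 0.01 (adjusted p = 0.949) and 0.06 (adjusted p = 0.453) by edgeR.

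Of 19 genes whose proteins bind Arc or take part in its turnover at the postsynapse, all were tested, 2 rose and 0 fell in ACS against control, where 2.83% of all tested genes rose and 1.33% fell, with a median log2 fold change of 0.06. At an unadjusted edgeR p under 0.05 there were 5 higher and 1 lower, where 20.8% of all tested genes had such a p. DESeq2, which called 1627 of all 16284 tested genes, called 3 higher and 1 lower, and limma called 2 higher and 0 lower. Dbn1, which encodes the spine actin-binding protein drebrin, rose to 287.4 ± 5.68 FPKM in ACS, against 239.8 ± 10.55 FPKM in control (SD, n = 3 each; log2 fold change 0.28, adjusted p = 0.0110 by edgeR). Sh3gl1, an endophilin with which Arc speeds receptor internalization, rose by 0.23 on the log2 scale (adjusted p = 0.0251 by edgeR). Dbn1 was called in 6 and Sh3gl1 in 4 of the 9 fits that left out a library. Wasf1, an actin regulator, gave a log2 ratio of 0.16 (adjusted p = 0.109), and Ube3a, a ubiquitin ligase, -0.29 (adjusted p = 0.117) by edgeR. By DESeq2, Wasf1 was called higher (adjusted p = 0.0330) and Ube3a lower (adjusted p = 0.0265).
Of 20 other genes derived from retrotransposon Gag, 12 were tested, 1 rose and 0 fell in ACS against control, where 2.83% of all tested genes rose and 1.33% fell, with a median of -0.01. At an unadjusted edgeR p under 0.05 there were 3 higher and 2 lower, where 20.8% of all tested genes had such a p. DESeq2, which called 1627 of all 16284 tested genes, called 1 higher and 1 lower, and limma called 1 higher and 0 lower. The riser was Moap1, a modulator of apoptosis, whose libraries varied widely. Moap1 was at 4.67, 2.12 and 9.08 FPKM in ACS, 0.883, 3.62 and 1.11 FPKM in DCS and 0.0553, 0.0903 and 0.663 FPKM in control. Its ACS and DCS ranges overlapped, and both lay above the control libraries. The log2 fold change was 4.28 against control in ACS (adjusted p = 0.0392 by edgeR) and 2.76 in DCS (adjusted p = 0.692), and the ACS call held in 3 of the 9 fits that left out a library. Rtl9 gave a log2 ratio of 0.45 (adjusted p = 0.190), Pnma3 0.39 (adjusted p = 0.188) and Pnma8a -0.31 (adjusted p = 0.122) by edgeR. No other tested member of the family was called in the main edgeR fit.
In DCS against control 0 genes of these 6 lists were called by edgeR, DESeq2 or limma, where edgeR called 0.0123% of all tested genes. At an unadjusted edgeR p under 0.05, where 7.09% of all tested genes stood, were 1 of 15 promoter inputs, 1 of 20 calcium genes, 0 of 11 bHLH-PAS genes, 0 of 11 targets, 5 of 19 Arc partners (3 higher, 2 lower) and 1 of 12 Gag-derived genes.

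**Figure D5:**
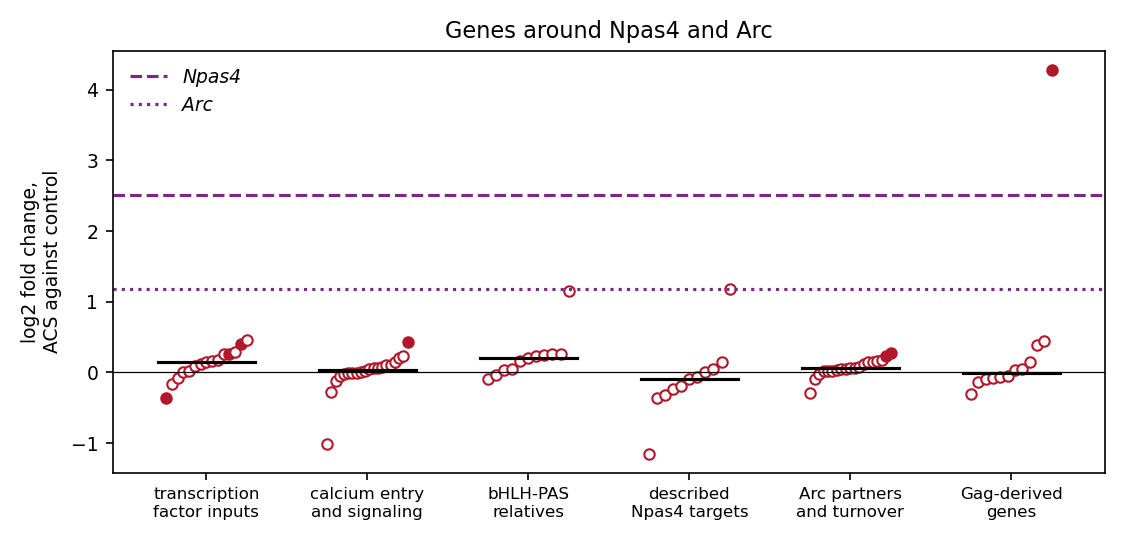
Log2 fold change in ACS against control (vertical axis) of the tested genes in 6 lists related to Npas4 and Arc, with a black bar at each list's median, the dashed line at the Npas4 value of 2.51 and the dotted line at the Arc value of 1.18. Filled symbols passed an adjusted p of 0.05, which 7 of them did, and Moap1 at 4.28 is the only point above the Npas4 line.

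Among 13798 tested genes with a gene symbol, the profiles most like that of Npas4 over the 9 libraries, by Pearson r of log2 CPM, were those of Dusp6 (0.991), Fos (0.990), Jun (0.986), Fnbp4 (0.982) and Pabpn1 (0.982). Dusp6, a phosphatase that switches off ERK, and Jun, an AP-1 subunit, are themselves immediate early genes. Fnbp4 is a formin-binding protein and Pabpn1 a nuclear poly(A)-binding protein. The profiles most like that of Arc were those of Znrf1 (0.978), Phf1 (0.973), Klf13 (0.968), Tshz3 (0.966) and Tmem131 (0.960). Znrf1 is a ubiquitin ligase, Phf1 a partner of the Polycomb complex, and Klf13 and Tshz3 are zinc finger factors. The correlation of Npas4 with Arc was 0.951, which placed Arc 29th by likeness to Npas4 and Npas4 ninth by likeness to Arc. The 9 points of each correlation share their libraries and fall into an ACS group and the rest, so these values describe the group difference as much as any likeness within groups.

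The labelled cell type was checked by markers. Of the 7 neuron markers, Tubb3 averaged 1179 FPKM in ACS, 1150 FPKM in DCS and 1038 FPKM in control. Map2 went the other way, at 106.8 FPKM in ACS, 113.7 FPKM in DCS and 135.9 FPKM in control on average. Neither was called in ACS against control (adjusted p = 0.179 for Tubb3 and 0.270 for Map2 by edgeR), and 6 of the 7 had a log2 fold change above 0. Excitatory neurons and GABAergic interneurons had all of their 9 and 8 markers present. The 9 excitatory neuron markers summed to 399.1 to 410.9 FPKM in ACS, 379.5 to 416.3 FPKM in DCS and 386.6 to 390.8 FPKM in control, so the ACS libraries lay above the control libraries but within the DCS range. The 8 interneuron markers summed to 266.8 to 277.7 FPKM in ACS, 259.6 to 284.0 FPKM in DCS and 234.6 to 278.5 FPKM in control, which overlapped. Glia were present too. The 6 astrocyte markers summed to 160.1 to 238.4 FPKM in ACS, 199.3 to 205.3 FPKM in DCS and 208.2 to 216.9 FPKM in control. The 6 markers of the oligodendrocyte lineage summed to 171.8 to 189.8 FPKM in ACS, 175.6 to 203.7 FPKM in DCS and 172.2 to 201.4 FPKM in control. The 6 microglial markers summed to 39.88 to 42.73 FPKM in ACS, 43.56 to 44.42 FPKM in DCS and 41.66 to 43.60 FPKM in control. No glial sum was thus higher in every ACS library than in every control library. Single astrocyte markers differed from their sum. For 3 of the 6 every ACS library was above every control library, as for 14% of tested genes. The median log2 fold change of the 6 was 0.23, and 4 of them had a value above 0. Endothelial markers (3 in the table, with Cldn5 listed at 0 in all ACS libraries) and meningeal fibroblast markers (3 in the table) each summed to under 2 FPKM in every library. Markers of progenitors and dividing cells ranged from 249.4 to 267.2 FPKM in ACS, 280.5 to 305.0 FPKM in DCS and 285.8 to 298.0 FPKM in control. Of these 8, 3 (Hes5, Mki67 and Vim) were called lower in ACS than in control, where 1.33% of all tested genes were. Of the other lists in ACS against control, 2 of 9 excitatory neuron markers (Emx1 and Cux2) and 1 of 6 astrocyte markers (Gfap) were called higher, where 2.83% of all tested genes were. The part of these shifts in the Npas4 and Arc differences was not tested.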

How the data were processed

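The members and all gene lists were chosen with earlier results of these data known. The authors sequenced polyadenylated RNA, aligned reads with HISAT2 (2.0.4 in the submitters' processing notes, which also name cutadapt 1.9, where the paper names fastp) and quantified genes with StringTie 1.3.4d. The deposited FPKM values scale fragments to exon length and library size, as the authors computed them, and hold 0.0001 in place of 0. The deposited estimated counts, whole numbers made by the authors with StringTie, were tested as counts. Of the counts from 1 to 15, 34.1% are multiples of 4, where 20% would be if even. The table names no build, and the paper's name for the rat genome is GRCh38. The adapters carried molecular identifiers, whose use in counting is not given in the sources used here.

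With edgeR 4.0.16 (R 4.3.3), counts were scaled by TMM and filtered by filterByExpr (minimum count 10, minimum total 15), which kept 16284 of 32623 entries. A quasi-likelihood F test used all 9 libraries with group as the only term and 6 residual degrees of freedom, and Benjamini-Hochberg adjustment ran over all tested genes. A call means an adjusted p under 0.05. Standard errors follow from the log2 fold change and its F value. Ratios of Npas4 to Arc were compared by exact permutation tests (scipy 1.17.1). The scripts were tested on simulated data. From each list up to 4 genes with the smallest p in ACS against control are named, and the 5 genes most correlated with each member (log2 CPM, prior count 2). The alternatives tried were to drop the filter, to require a mean FPKM of at least 1, median-of-ratios scaling, DESeq2 1.42.0, limma 3.58.1 on log2(FPKM + 0.1) or log2(FPKM + 1), the 6 libraries of a comparison alone, a replicate block, counts divided by 4 and each library left out. All columns of values were mapped to a library.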

Additional observations from a re-analysis of the deposited data

How the results depend on the processing

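The rise of Npas4 in ACS against control was called under all 18 alternatives, with log2 fold changes of 2.07 to 2.81, and reversed under none. The Arc call lay near the threshold. It was lost without a filter (log2 fold change 1.18, adjusted p = 0.0560 by edgeR), with limma on log2(FPKM + 0.1) (1.11, adjusted p = 0.0609) and with the 6 libraries alone (1.18, adjusted p = 0.0511). It held in the other 6 alternatives apart from the fits that left out 1 library, and in 3 of those 9 fits. Arc in ACS against DCS was called by DESeq2 (1.13, adjusted p = 0.00500) and by no other alternative. With limma on log2(FPKM + 1), which understates low genes, the log2 fold changes in ACS against control were 2.07 for Npas4 and 0.63 for Arc.

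With 1 library left out at a time, the log2 fold changes in ACS against control ran from 2.34 to 2.81 for Npas4 and from 0.96 to 1.39 for Arc. In DCS against control they ran from -0.26 to 0.40 for Npas4 and from -0.17 to 0.26 for Arc. In ACS against DCS they ran from 2.24 to 2.77 for Npas4 and from 0.93 to 1.36 for Arc. The log2 difference in the ratio of Npas4 to Arc ran from 1.14 to 1.47 in ACS against control, from -0.11 to 0.17 in DCS against control and from 1.11 to 1.44 in ACS against DCS.

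The count of all genes called varied more than the values of the pair. For ACS against control, 678 genes were called, 1627 with DESeq2 and 139 to 1484 with 1 library left out: 205, 178 and 320 without ACS library 1, 2 or 3, 432 without DCS library 2, and 168, 139 and 1484 without control library 1, 2 or 3. For DCS against control 2 genes were called, 38 with DESeq2, 1 each with limma on log2(FPKM + 1), the 6 libraries alone, the replicate block and counts divided by 4, and 1 to 47 with 1 library left out, with 47 without control library 3 and at most 5 without any other. For ACS against DCS 103 genes were called, 634 with DESeq2, 65 with limma on log2(FPKM + 0.1), 64 with limma on log2(FPKM + 1), 59 with the replicate block and 27 to 186 with 1 library left out, with 186 without control library 3 and 27 to 67 without each other library. The cause was not tested.

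Over all tested genes, libraries of the same number were not alike. Over 9 same-numbered pairs the correlation of deviations from the group mean ran from -0.0532 to 0.0631, 0 of 9 over 0.1. Of the 9 libraries, 4 were nearest to one of their own number. These values do not speak for single genes, and Npas4, Arc and Fos were each highest in library 3 of both DCS and control. Whether same-numbered libraries had a common source was not tested. With the number as a replicate block in the edgeR fit, the log2 fold changes in ACS against control were 2.54 for Npas4 (adjusted p = 0.000625) and 1.24 for Arc (adjusted p = 0.0313), and 475 genes were called. The SE was 0.15 for Npas4 and 0.21 for Arc with the block, against 0.31 and 0.28 in the main fit. Arc rests on fewer fragments than Npas4, and each group has 3 libraries.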

Other observations

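The genes around both loci were looked at by position, a rule chosen after values were seen. Within 100 kb of Npas4 the table holds 10 other entries, none of which overlaps it, and 9 were tested. In ACS against control 0 of the 9 were called by edgeR, where 2.83% of all tested genes were called higher and 1.33% lower. Their log2 fold changes ran from -0.97 to 0.83, with a smallest adjusted p of 0.323 by edgeR. So few genes cannot be told from those shares. The nearest, Mrpl11 (a mitochondrial ribosomal protein, written mrpl11 in the table), gave a log2 ratio of 0.04 (adjusted p = 0.850 by edgeR). Within 100 kb of Arc the table holds 15 other entries, of which 4 were tested. Called higher was 1 of these 4, a noncoding entry with a clone name (log2 fold change 0.33, adjusted p = 0.0284 by edgeR), where 2.83% of all tested genes were. Jrk, the nearest tested gene to Arc, gave a log2 ratio of -0.17 (adjusted p = 0.170), Them6 -0.18 (adjusted p = 0.588) and Lynx1, which binds nicotinic acetylcholine receptors, 0.12 (adjusted p = 0.781).

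The GO annotation in the table gives Npas4 27 terms and Arc 45, and they share 3 of them. These are protein binding, given to 3797 genes of the table, learning, given to 59, and long-term memory, given to 40.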
